A study of Mus musculus with 4 samples.

Results

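The NF-kB subunits and the inhibitors that feed back on them were examined in mouse cardiac fibroblasts after knockdown of Nr4a3. The set holds 10 genes, taken by name from the 13192 genes of the deposited count table, and all 10 were found there and passed the filter on low counts: Nfkb1, Nfkb2, Rel, Rela, Relb, Nfkbia, Nfkbie, Nfkbiz, Tnfaip3 and Bcl3. The cells were primary wild-type cardiac fibroblasts from neonatal heart, marked P3 in their titles without an explanation. One group carried a short hairpin RNA against Nr4a3 (shNr4a3, 2 libraries) and the other a non-targeting hairpin (shNT, 2 libraries). A short hairpin RNA is processed by the cell into a small interfering RNA that lowers the transcript it matches, and the labels do not give its vector or sequence. Both groups were harvested at day 7, and no reprogramming factor is named for either. The labels do not say that the libraries of a group are separate cultures, so the p-values measure only the spread between these libraries, which may be technical.

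NF-kB is a family of transcription factors that act as pairs of subunits. In resting cells most pairs are held in the cytoplasm by IkB proteins. Signals from cytokine and pattern receptors activate the IkB kinase complex, which marks IkB for destruction and frees the pairs to enter the nucleus. Several genes that NF-kB induces encode its own subunits and inhibitors, so the pathway limits itself. In fibroblasts NF-kB drives inflammatory cytokines, chemokines and adhesion molecules, and it is a known regulator of the senescence-associated secretory phenotype. The study's title concerns senescence as a barrier to cardiac reprogramming.

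Because NF-kB induces many of its own regulators, the promoters of the 10 genes were searched for the NF-kB consensus motif on both strands. RefSeq windows on GRCm38.p6, from 250 bases before to 50 after a gene start, were at hand for 7 of the 10 genes. The motif occurred in at least 1 window of 6 of these 7, namely Nfkb2, Rel, Nfkbia, Nfkbie, Bcl3 and Tnfaip3. It was absent from the Rela window, and Nfkb1, Relb and Nfkbiz had no window. Over all 32851 windows of the same length 4.51% held the motif, and 6.43% of the tested genes with a window did. In the lists of NF-kB target genes used further on, 6 of 25 inflammatory and 7 of 24 survival, stress and antigen genes with a window held it. The sequences are shown because the members differ in whether, where and how often they hold the motif. They run 5′ to 3′ on the gene's strand from 200 bases before to 30 after the start, in the window farthest upstream, and capitals mark the matches. They cover chr12:55492618-55492847 (minus strand), chr17:45555500-45555729 (plus), chr10:19015381-19015610 (minus), chr11:23770940-23771169 (minus), chr19:46304537-46304766 (plus), chr7:19822726-19822955 (minus) and, with no match, chr19:5637341-5637570 (plus).
Nfkbia: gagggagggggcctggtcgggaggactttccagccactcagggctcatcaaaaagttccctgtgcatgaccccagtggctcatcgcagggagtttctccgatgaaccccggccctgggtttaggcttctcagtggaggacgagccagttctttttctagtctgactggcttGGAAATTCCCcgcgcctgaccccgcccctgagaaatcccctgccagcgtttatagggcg
Nfkbie: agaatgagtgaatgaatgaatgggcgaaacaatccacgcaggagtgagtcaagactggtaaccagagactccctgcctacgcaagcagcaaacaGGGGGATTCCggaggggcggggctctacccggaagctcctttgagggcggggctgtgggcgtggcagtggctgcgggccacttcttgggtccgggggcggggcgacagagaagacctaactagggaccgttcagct
Tnfaip3: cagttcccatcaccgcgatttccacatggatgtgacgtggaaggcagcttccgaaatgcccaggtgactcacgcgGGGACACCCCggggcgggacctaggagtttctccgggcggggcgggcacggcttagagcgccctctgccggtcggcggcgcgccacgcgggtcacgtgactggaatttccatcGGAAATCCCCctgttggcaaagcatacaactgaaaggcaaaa
Rel: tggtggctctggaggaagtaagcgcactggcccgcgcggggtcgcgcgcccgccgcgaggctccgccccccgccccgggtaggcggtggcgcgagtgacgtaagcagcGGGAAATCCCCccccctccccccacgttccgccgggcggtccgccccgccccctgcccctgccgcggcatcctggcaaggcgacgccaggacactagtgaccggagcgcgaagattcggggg
Nfkb2: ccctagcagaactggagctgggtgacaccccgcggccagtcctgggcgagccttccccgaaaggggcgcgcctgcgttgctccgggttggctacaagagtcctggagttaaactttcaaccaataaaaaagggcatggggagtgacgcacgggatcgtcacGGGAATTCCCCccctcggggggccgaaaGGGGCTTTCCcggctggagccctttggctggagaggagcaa
Bcl3: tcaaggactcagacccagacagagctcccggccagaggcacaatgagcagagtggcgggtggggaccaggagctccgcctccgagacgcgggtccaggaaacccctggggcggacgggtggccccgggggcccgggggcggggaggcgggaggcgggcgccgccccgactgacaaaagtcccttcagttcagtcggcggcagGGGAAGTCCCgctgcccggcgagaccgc
Rela: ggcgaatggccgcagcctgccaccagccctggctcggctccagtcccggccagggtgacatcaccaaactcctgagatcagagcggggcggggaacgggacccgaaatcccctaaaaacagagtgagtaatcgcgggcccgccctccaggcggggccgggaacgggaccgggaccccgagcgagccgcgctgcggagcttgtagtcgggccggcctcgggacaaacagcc

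Matches that overlapped, on either strand, were merged. The match lay 29 to 20 bases before the start in Nfkbia, 106 to 97 before it in Nfkbie and 92 to 82 before it in Rel. Tnfaip3 had 2 matches, from 125 to 116 and from 12 to 3 bases before the start. Nfkb2 also had 2 in this window, from 39 to 29 and from 11 to 2 bases before it. Its other windows lie farther downstream, overlap each other and share a match. In Bcl3 the match lay just inside the transcript, at bases 3 to 12. The response element of NR4A monomers, known as NBRE (AAAGGTCA), was searched on both strands in the same windows. It was found in 0 of the 7 genes, against 1.13% of the tested genes with a window and 1.51% of all windows. At so low a share, 0 of 7 genes says little. A match of letters is not evidence of binding, and the absence of one says nothing about sites outside these windows.

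Read counts summed over the listed genes came to 34068241 and 35111013 in shNT and to 34246969 and 34813598 in shNr4a3. Nr4a3 was counted 60 and 29 times in the shNT libraries against 4 and 8 times after its knockdown, a log2 fold change of -2.98 ± 0.67 (SE, n = 2 per group; adjusted p = 3.22e-04, edgeR). Defining fibroblast markers were present, all 10 of 10, with 4 higher and 5 lower in shNr4a3 and a median log2 fold change of -0.37. Levels of the NF-kB genes are given as normalised CPM, a gene's count relative to all counts of its library after scaling by TMM factors, and a gene was called where its adjusted p in edgeR's quasi-likelihood test over 13160 genes was under 0.05.

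The inhibitors Nfkbia, Nfkbie and Tnfaip3 rose, the subunits moved in both directions, and the nuclear cofactor Bcl3 fell. Of the 10 genes, 5 rose and 3 fell, 8 in all, while 55.5% of all tested genes were called, 27.6% higher and 27.9% lower. With library totals only, in place of TMM factors, 5 of the 10 rose and 2 fell, and of all genes 4702 rose and 2837 fell, in place of 3635 and 3674. In 9 of 10 genes the libraries of the groups did not overlap, which was the case for 77.2% of all tested genes. The median log2 fold change was 0.16 over the 10 genes and 0.00 over all tested genes. The inhibitors Nfkbia, Tnfaip3 and Nfkbie rose 1.89-, 1.85- and 1.64-fold, and Rel rose 1.45-fold. Bcl3 was 2.23-fold and Relb 1.70-fold lower.

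**Figure D1:**
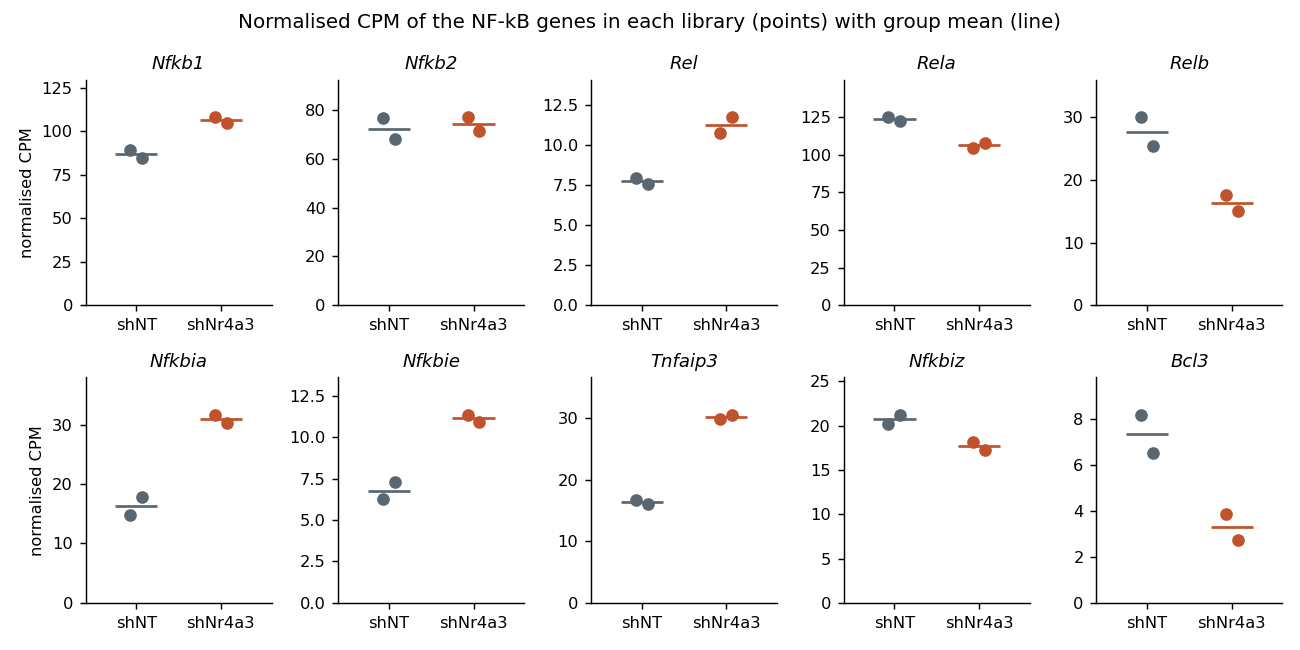
Normalised CPM of the 10 genes (vertical axes from 0, one scale per panel) in the 2 shNT and 2 shNr4a3 libraries; points are libraries and lines group means. The groups overlap only in Nfkb2, and the widest gaps relative to the level are in Nfkbia, Tnfaip3 and Bcl3.

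Rela encodes p65, the main activating partner in the canonical pathway, and Nfkb1 encodes p105, the precursor of its usual partner p50. Rela (GRCm38 chromosome 19, 5637483 to 5648130) stood at 125 and 122 normalised CPM in shNT and at 105 and 108 in shNr4a3. Both shNr4a3 libraries lay below both shNT libraries, by a small step. The log2 fold change was -0.22 ± 0.06 (adjusted p = 0.00512). The call was lost with library totals only (-0.10, adjusted p = 0.168), and also when the first (-0.19, adjusted p = 0.144) or the second shNr4a3 library (-0.24, adjusted p = 0.0669) was left out. Nfkb1 (chromosome 3, 135584655 to 135691547) went the other way, from 89.5 and 84.5 normalised CPM in shNT to 108 and 105 in shNr4a3. Its group means were 87.0 ± 3.50 and 106 ± 2.21 (SD, n = 2 each), and its log2 fold change was 0.29 ± 0.07 (adjusted p = 5.28e-04). In raw counts Nfkb1 came to 0.717 and 0.692 of Rela in the shNT libraries and to 1.03 and 0.972 of it in the shNr4a3 libraries, so the groups stood apart in this ratio, which no scaling factor enters.

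Rel encodes c-Rel, an activating subunit best known from lymphocytes and itself an NF-kB target. Rel (chromosome 11, 23736847 to 23770970) was measured at 7.91 and 7.55 normalised CPM in shNT and at 10.7 and 11.7 in shNr4a3. The groups did not overlap, and the log2 fold change was 0.54 ± 0.16 (adjusted p = 0.00479). Without shNr4a3 replicate 2 it was 0.48 and did not pass (adjusted p = 0.0767).

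Relb and Nfkb2 encode RelB and p100, the pair of the non-canonical pathway, in which p100 is trimmed to p52. Relb (chromosome 7, 19606217 to 19629438) had 29.97 and 25.4 normalised CPM in shNT and 17.6 and 15.0 in shNr4a3. The highest shNr4a3 library was well below the lowest shNT library, and the log2 fold change was -0.77 ± 0.12 (adjusted p = 1.75e-06). Nfkb2 (chromosome 19, 46304320 to 46312385) gave 76.6 and 68.1 in shNT and 77.0 and 71.6 in shNr4a3. These libraries overlapped, and the log2 fold change of 0.04 ± 0.08 did not pass (adjusted p = 0.697). Exons of Nfkb2 share 299 bases with Psd and 531 with a long non-coding RNA, both on the opposite strand, and no source used here states how strand was set in the counting. The count of Relb per count of Nfkb2 was 0.391 and 0.373 in shNT and 0.228 and 0.209 in shNr4a3. The count of Relb per count of Rel was 3.79 and 3.36 in shNT and 1.63 and 1.28 in shNr4a3, a 2.46-fold difference between the group means.

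Nfkbia encodes IkB-alpha, the inhibitor that is destroyed and resynthesised fastest after a stimulus, and Nfkbie encodes IkB-epsilon, which acts later. Nfkbia (chromosome 12, 55489410 to 55492647) was at 14.8 and 17.8 normalised CPM in shNT and at 31.6 and 30.2 in shNr4a3. Every shNr4a3 value exceeded every shNT value by a wide margin, with group means of 16.3 ± 2.11 and 30.9 ± 0.972 (SD, n = 2 each). The log2 fold change was 0.92 ± 0.11 (adjusted p = 2.67e-08). Nfkbie (chromosome 17, 45555703 to 45563169) was at 6.26 and 7.28 in shNT and at 11.3 and 10.9 in shNr4a3, with no overlap between the groups. Its log2 fold change was 0.72 ± 0.17 (adjusted p = 4.55e-04).

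Tnfaip3 encodes A20, an enzyme that edits ubiquitin chains and shuts the pathway off above the IkB kinases. Tnfaip3 (chromosome 10, 19000910 to 19015657) stood at 16.6 and 16.0 normalised CPM in shNT and at 29.8 and 30.5 in shNr4a3. The libraries of each group were close together, with SDs of 0.415 and 0.496 around means of 16.3 and 30.1 (n = 2 each). The log2 fold change was 0.88 ± 0.11 (adjusted p = 2.75e-08). Nfkbia and Tnfaip3 were the members with the smallest adjusted p and rose by nearly the same factor.

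Nfkbiz and Bcl3 encode IkB-zeta and BCL-3, atypical IkB proteins that work in the nucleus as cofactors of p50 or p52 pairs. Bcl3 (chromosome 7, 19808462 to 19822770) had 8.19 and 6.54 normalised CPM in shNT and 3.85 and 2.76 in shNr4a3, so the groups did not overlap. Its log2 fold change of -1.16 ± 0.22 was the largest of the 10 in size (adjusted p = 4.73e-05). Bcl3 was also among the least abundant members, at 267 and 222 raw counts against 137 and 100, and its exons share 161 bases with an antisense gene. Nfkbiz (chromosome 16, 55811375 to 55838899) had 20.2 and 21.2 in shNT and 18.2 and 17.2 in shNr4a3. The shNr4a3 libraries were lower without overlap, yet the log2 fold change of -0.23 ± 0.12 did not pass (adjusted p = 0.0986).

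**Figure D2:**
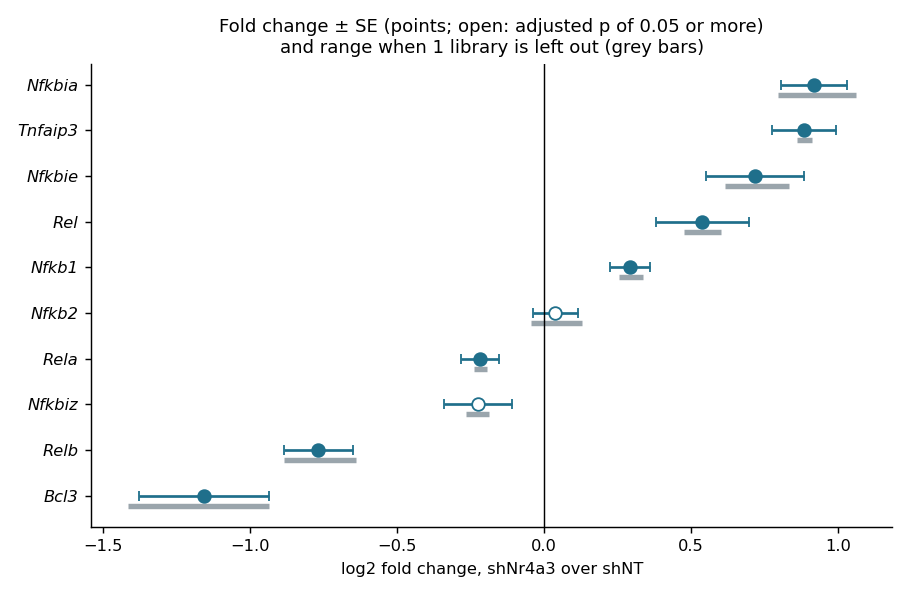
Log2 fold change of shNr4a3 over shNT for the 10 genes (points) with its SE (whiskers), and the range obtained when each library in turn was left out (grey bars); open points did not pass. Only the bar of Nfkb2 crosses 0, from -0.04 to 0.13.

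Since each library carries its own scaling, the inhibitors Nfkbia, Tnfaip3 and Nfkbie were also set against Rela within each library. The count of Nfkbia per count of Rela was 0.119 and 0.146 in shNT and 0.302 and 0.280 in shNr4a3, a 2.20-fold difference between the means. The same ratio for Tnfaip3 was 0.133 and 0.131 in shNT and 0.285 and 0.283 in shNr4a3, 2.15-fold higher. For Nfkbie it was 0.0501 and 0.0596 in shNT and 0.108 and 0.101 in shNr4a3. All 3 inhibitors thus stood higher relative to Rela in both shNr4a3 libraries. Rela itself fell, so the folds of the ratios exceed the 1.89-fold rise of Nfkbia and the 1.85-fold rise of Tnfaip3. The ratios rest on the same counts as those rises and are not separate evidence. The count of Bcl3 per count of Nfkbiz ran the other way, from 0.405 and 0.309 in shNT to 0.212 and 0.160 in shNr4a3. Per count of Rela, Bcl3 went from 0.0656 and 0.0536 in shNT to 0.0368 and 0.0255 in shNr4a3. Relb per count of Rela went from 0.24 and 0.208 to 0.168 and 0.139. These ratios carry no test: an exact permutation of 2 against 2 libraries cannot go below a two-sided p of 0.333.

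**Figure D3:**
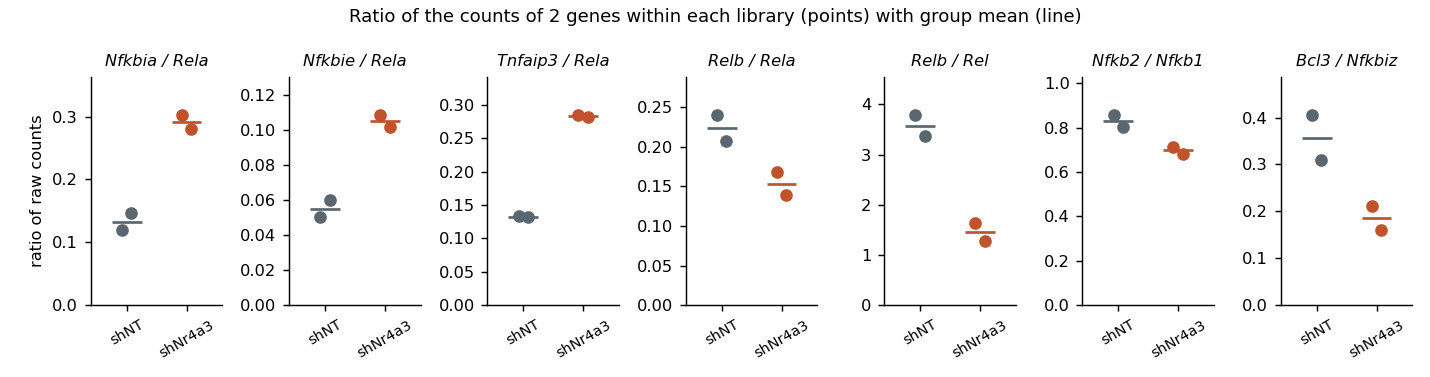
Ratio of the raw counts of a pair of genes within each library (vertical axes from 0, one scale per panel); points are libraries and lines group means. The groups stand apart in every panel, higher in shNr4a3 for Nfkbia, Nfkbie and Tnfaip3 over Rela and lower for Relb, Nfkb2 over Nfkb1 and Bcl3 over Nfkbiz.

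Levels between genes were compared per kilobase of merged GENCODE M21 exons. The deposited FPKM was not relied on for this, because the gene lengths behind it did not follow the annotated lengths (Spearman rho -0.006 over 12705 genes; genes are not independent replicates). In shNT Rela was the most abundant, with a mean of 40.2 ± 0.634 normalised CPM per kilobase (SD, n = 2). It was followed by Nfkb2 (15.8 ± 1.32), Nfkbia (10.1 ± 1.31), Nfkb1 (7.21 ± 0.290), Relb (7.12 ± 0.834), Nfkbiz (4.13 ± 0.139), Bcl3 (2.98 ± 0.470), Tnfaip3 (2.26 ± 0.0574), Nfkbie (2.22 ± 0.238) and Rel (1.04 ± 0.0347). Neighbours in this order stood apart in every library except Nfkb1 and Relb, and Tnfaip3 and Nfkbie, whose libraries overlapped. In shNr4a3 Nfkbia, at 19.2 ± 0.604, ranked above Nfkb2 at 16.2 ± 0.837, and Bcl3, at 1.34 ± 0.313, came last, overlapping Rel at 1.504 ± 0.0920. Relb with Tnfaip3 and Nfkbie with Nfkbiz were the other neighbours that overlapped. The place of Nfkb1 depended on the length used: per kilobase of the longest transcript, which for this gene is 4149 bases against 12061 of merged exons, it ranked above Nfkb2 in both groups, and on that scale Nfkbia and Nfkb2 overlapped in shNr4a3.

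Among the 5 subunits, Rela made up 55.3% and 57.5% of the summed normalised CPM per kilobase of merged exons in shNT and 51.8% and 54.2% in shNr4a3. The share of Relb was 10.5% and 9.45% in shNT and 6.87% and 5.94% in shNr4a3. The share of Rel was 1.44% and 1.46% in shNT and 2.19% and 2.42% in shNr4a3. These shares depended on the length used. Per kilobase of the longest transcript that of Rela was 47.1% and 49.0% in shNT and 42.2% and 44.3% in shNr4a3. Rela thus gave more than any other subunit in every library, while the groups did not overlap for any of these shares.

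**Figure D4:**
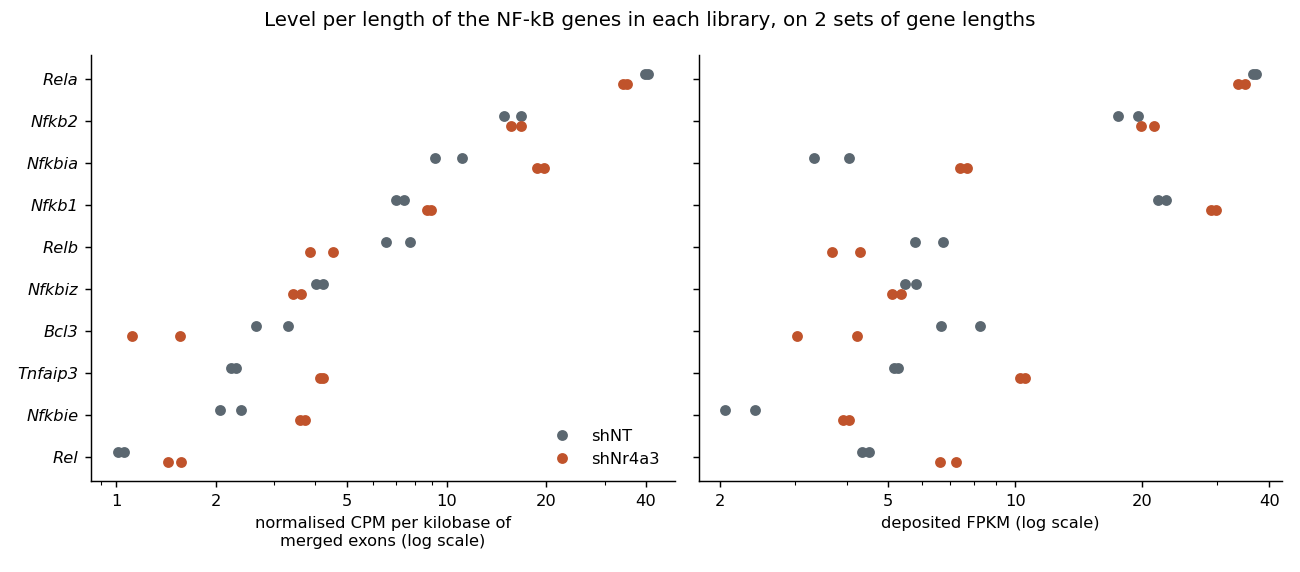
Level of each gene in each library (points) as normalised CPM per kilobase of merged exons (left) and as deposited FPKM (right), both on log axes. Rela is highest on both scales, whereas Nfkbia ranks 3 on the left and 9 on the right in shNT.

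The genes around these 10 were read from 6 lists of the pathway, 152 genes in all, of which 132 were tested; 44 rose and 41 fell. The share called was 64.4% over these lists and 55.5% over all tested genes. By list it was 69.2% for receptors and adaptors, 53.8% for ubiquitin editing and degradation, 28.6% for other IkB proteins and cofactors, 76.0% for inflammatory targets and 92.3% for survival, stress and antigen targets, and 6 of 15 kinases and partners were called. With library totals only the same counts were 50 and 32. Of 26 tested receptors and adaptors 6 rose and 12 fell (median -0.21 on the log2 scale). Tnfrsf1b, TNF receptor 2, fell by 1.23 (SE 0.10) on the log2 scale, Il1r1, an interleukin-1 receptor, by 0.98 (SE 0.10) and Tlr2, a bacterial lipoprotein receptor, by 1.03 (SE 0.17). Tnfrsf1a, TNF receptor 1, named here after its values were seen, stood at 152 and 148 normalised CPM in shNT and at 138 and 141 in shNr4a3 and did not pass (-0.10, adjusted p = 0.159). Tnfrsf12a, the receptor for TWEAK, rose by 1.00 ± 0.05, Tnfrsf11b, the decoy receptor osteoprotegerin, by 0.84 ± 0.08 and Traf3, an adaptor that restrains the non-canonical pathway, by 0.69 ± 0.08.

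Of 15 kinases and binding partners 2 rose and 4 fell. Within the IkB kinase complex, the catalytic subunit Chuk fell by 0.36 (SE 0.07; adjusted p = 1.00e-04). The other catalytic subunit Ikbkb (0.14 ± 0.08, adjusted p = 0.128) and the scaffold Ikbkg (-0.01 ± 0.07, adjusted p = 0.870) did not pass, though Ikbkb passed with library totals only (0.26, adjusted p = 0.00836). Map3k14, the kinase of the non-canonical pathway, gave 0.06 ± 0.15 (adjusted p = 0.743). Tbkbp1, a partner of the kinase TBK1, fell by 2.17 (SE 0.22), while the TBK1 partners Tank (0.42 ± 0.10) and Azi2 (0.27 ± 0.08) rose. Ikbke fell by 0.46 (SE 0.12). Without shNr4a3 replicate 2, Azi2 (0.21, adjusted p = 0.145) and Ikbke (-0.39, adjusted p = 0.0532) did not pass.

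Of 26 genes of ubiquitin editing and degradation 10 rose and 4 fell. Birc2, the ubiquitin ligase cIAP1, rose by 0.65 ± 0.09, and Btrc, the receptor that recruits marked IkB to its ligase, by 0.46 ± 0.09. Ube2l3, a ubiquitin-conjugating enzyme, fell by 0.60 (SE 0.08) and Rbck1, a subunit of the linear chain ligase, by 0.39 (SE 0.08). Commd1 (0.44), Tnip1 (-0.22), a partner of A20, and Cyld (0.21), a deubiquitinase that acts beside it, passed in the comparison as reported. Each lost its call in several alternatives, for example without shNr4a3 replicate 1, at 0.43, -0.23 and 0.17, with adjusted p = 0.160, 0.102 and 0.232 in that order. Birc3, cIAP2, did not pass (0.07 ± 0.11, adjusted p = 0.640). In the list of other IkB proteins and cofactors 4 of 14 rose and 0 fell at the adjusted threshold in edgeR. Sirt1, a deacetylase that acts on p65, rose by 0.62 ± 0.10 and Nkiras2, a small GTPase that slows loss of IkB-beta, by 0.55 ± 0.08. Nfkbib, IkB-beta, gave -0.22 ± 0.14 (adjusted p = 0.170) and passed without shNT replicate 1 (-0.35, adjusted p = 0.0255). Nfkbid gave -0.03 ± 0.48 (adjusted p = 0.964) on 31 to 43 counts per library.

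Genes known as NF-kB targets went in both directions. Of 25 tested inflammatory targets 10 rose and 9 fell (median 0.15 on the log2 scale). Cxcl1, a neutrophil chemokine, rose by 2.32 ± 0.33, from 22 and 34 counts in shNT to 139 and 164 in shNr4a3. Cx3cl1, fractalkine, rose by 1.56 ± 0.08 and Il6 by 1.35 ± 0.09. Ccl2, a monocyte chemokine, moved the opposite way, counted 1605 and 1685 times in shNT but 700 and 699 times under shNr4a3; it fell by 1.34 (SE 0.09). Mmp3, stromelysin, fell by 1.57 (SE 0.17) and Tnfaip2 by 1.46 (SE 0.08). Icam1, an adhesion molecule, fell by 0.33 (SE 0.09), a call lost with library totals only (-0.21, adjusted p = 0.0560) and without shNr4a3 replicate 1 (-0.30, adjusted p = 0.0645). The other 13 genes of the list, Tnf and Il1b among them, are not listed in the deposited count table and were not analysed here.

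Of 26 tested survival, stress and antigen targets 12 rose and 12 fell. Gadd45b, a stress sensor, rose by 0.85 ± 0.07, Vegfc by 0.80 ± 0.15 and Sod2, mitochondrial superoxide dismutase, by 0.31 ± 0.07. Tnfsf9 rose by 0.70 ± 0.23, but not when either the second shNT library (0.50, adjusted p = 0.0780) or the second shNr4a3 library (0.39, adjusted p = 0.324) was left out. Pdgfb fell by 1.99 (SE 0.25) and Dusp1, a phosphatase of MAP kinases, by 1.06 (SE 0.09). H2-K1, a class I antigen-presenting molecule, fell by 1.90 (SE 0.10). Class I genes resemble one another in sequence, so the counting may misplace or drop some of their reads.

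**Figure D5:**
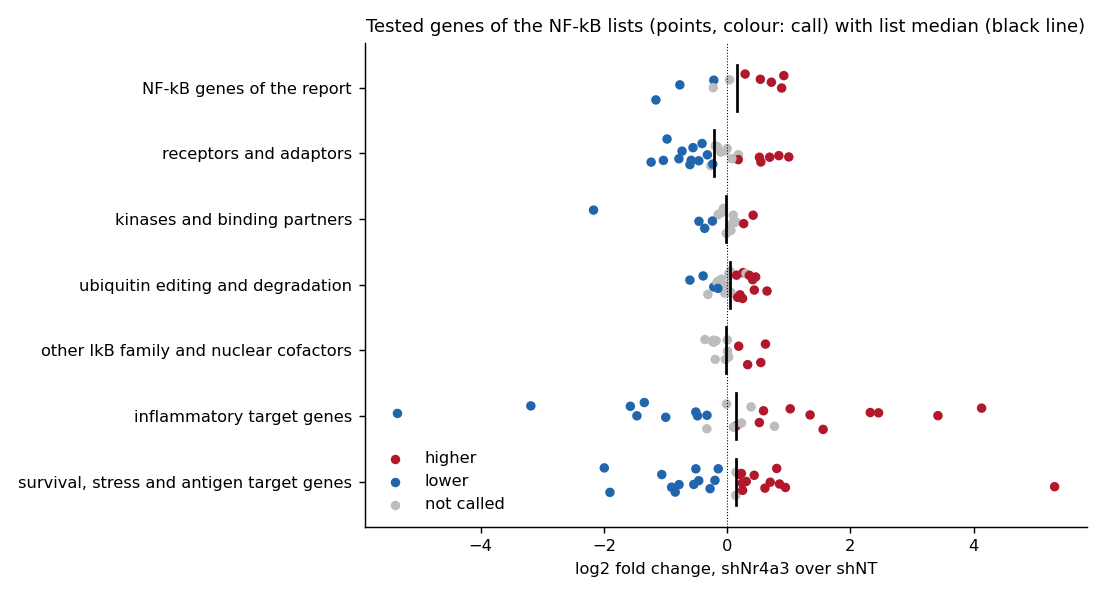
Log2 fold change of shNr4a3 over shNT for the tested genes of the 10-gene set and the 6 pathway lists (points, coloured by call), with each list's median (black line). In both target lists higher and lower genes are about equal in number, 10 and 9, and 12 and 12.

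Markers of fibroblasts and of other cell types moved with the knockdown. In bulk RNA fewer cells of a type cannot be told apart from less RNA per cell. The 10 fibroblast markers summed to 14452 to 14947 normalised CPM in shNT and 10370 to 10418 in shNr4a3, though 4 of them rose and 5 fell. In normalised CPM the largest falls were in Col1a1, with group means of 4207 and 1892, and Vim, with 3540.5 and 1809. Postn rose, from a mean of 1987 to 2988. Of 11 tested endothelial markers 9 fell and 0 rose in edgeR, their summed level going from 358 to 377 normalised CPM in shNT to 177 to 185 in shNr4a3. Of 12 epicardial and mesothelial markers 11 fell and 1 rose, from 734 to 762 down to 191 to 195 summed normalised CPM. Of 7 smooth muscle and pericyte markers 5 fell and 1 rose (641 to 726 against 371 to 375), and of 5 glial markers 3 fell (6.07 to 7.91 against 2.39 to 2.84). Of 7 tested cardiomyocyte markers 1 rose and 1 fell (1005 to 1061 against 485 to 510.0). Nearly all of that sum was Tnnt2, at 1057 and 1001 normalised CPM in shNT and 478 and 504 in shNr4a3, while the other 6 were each under 5 and Ttn was the one that rose. Of 16 macrophage and leukocyte markers 6 were tested, with 1 higher and 3 lower, and 9 are not listed in the deposited count table. The summed level was 60.9 to 62.2 normalised CPM in shNT and 99.7 to 100.4 in shNr4a3, most of it Lyz2. Ptprc, which defines leukocytes and did not pass the filter, was counted 8 and 36 times in shNT and 6 times in each library of the knockdown. The part of these cell types in the values of the NF-kB genes was not tested.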

How the data were processed

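RNA-seq was measured in 4 libraries, 2 per group; titles gave the groups. Per the labels' protocols, ribosomal RNA was depleted and stranded paired-end libraries were made, whereas the molecule label reads polyA RNA. Trimmomatic 0.36, featureCounts, Subread 1.5.1, SAMtools and mm10 are named in the submitters' processing notes, with no aligner role or strand setting. In the table deposited by the authors stand raw counts and FPKM for every gene; it lists no gene with a mean count under 10.25. It also holds the authors' log2 fold changes with their p-values, a mean signal per gene and a test score; the last 2 were not used.

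The test on counts was the robust quasi-likelihood test of edgeR 4.0.16 under R 4.3.3 (TMM factors, default filterByExpr, which removed 32 genes and left 13160), with group as the only term and Benjamini-Hochberg adjustment over all tested genes at 0.05; every adjusted p is from this test unless another is named. The SE of a log2 fold change is its size over the square root of F. Gene lengths, positions and overlaps were read from GENCODE M21 (GRCm38), which held 96.3% of the listed symbols, and promoters from RefSeq (GRCm38.p6). Levels between genes were planned on the deposited FPKM and moved to annotated lengths. Named genes were Nr4a3, the 10 members, a fixed set of kinases, inhibitors and targets (of which Traf1 was not analysed here), and up to 3 called genes per direction and list, by size, where groups did not overlap and the mean log2 CPM reached 1; 1 gene this rule names is not reported here. The members and lists were chosen with earlier results of these data known; 1 list gene, Skp1, was matched through its newer symbol.

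Between replicates the chi-square per gene was 11.1 in shNT and 3.98 in shNr4a3, more than sampling noise. The test was tried on simulated data first. Alternatives were DESeq2 1.42.0, limma-voom (limma 3.58.1), other scalings and filters, a minimum fold, a replicate block, each library left out, and removal of mitochondrial genes together with the 20 of highest abundance.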

Additional observations from a re-analysis of the deposited data

How the results depend on the processing

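Nfkbia, Tnfaip3, Relb and Bcl3 kept their direction and their call in all 14 alternatives; their log2 fold changes ran from 0.80 to 1.06, from 0.86 to 1.00, from -0.89 to -0.64 and from -1.42 to -0.93. Nfkb2 and Nfkbiz passed in none of them. A test against a minimum log2 fold change of 0.5 left 2 members higher and 2 lower, 14 and 16 pathway genes, and 750 and 1351 of all genes; Nfkb1, Rel, Rela and Nfkbie did not pass it. Library totals only shifted the median over all genes by 0.113 on the log2 scale, with 4702 genes higher and 2837 lower against 3635 and 3674. With a library left out, 4 to 5 members were higher and 2 to 3 lower, as were 31 to 44 and 32 to 46 pathway genes, and 2665 to 3848 and 2862 to 3758 of all genes. With 1 library left in a group, its spread is assumed to be that of the other group. Of 41 other named genes, 22 were alike in every alternative.

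The replicate number pairs no samples by the labels, and same-numbered libraries did not deviate together (correlation -0.04). With a replicate block 5 members were higher and 3 lower, as were 42 and 40 pathway genes and 3552 and 3599 of all genes.

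By deposited FPKM, the scale planned for levels, Nfkb1, Nfkb2, Bcl3, Tnfaip3, Rel, Nfkbia and Nfkbie ranked 2, 3, 4, 7, 8, 9 and 10 in shNT. By normalised CPM per kilobase of merged exons they ranked 4, 2, 7, 8, 10, 3 and 9. Per kilobase of the longest transcript, an alternative chosen after seeing the data, Bcl3, Tnfaip3, Rel, Nfkbia and Nfkbie ranked 7, 8, 10, 4 and 9. With 2 libraries per group, Rela, the smallest change called among the members, was lost in 2 of the 4 fits without a library.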

Other observations

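The lengths behind the deposited FPKM can be recovered, since counts, FPKM and library totals are all in the table: 100% of nonzero values gave a whole number of bases, within 0.01. Of the 12705 genes with an annotated length, 8.4% had a recovered length within 10% of their merged exons. For Nfkbia the recovered length was 4268 bases against 1610 of merged exons, for Bcl3 948 against 2475 and for Tnfaip3 3010 against 7226. The deposited FPKM of a gene can still be compared between libraries, where the length cancels, but not with that of another gene. The FPKM is scaled by library totals only, without TMM factors. The origin of these lengths was not tested.

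In the authors' deposited table all 10 NF-kB genes carry the label Non-significant. The p-values in the authors' deposited table test for a change beyond a minimum, not for any change: with a minimum of 0.5 on the log2 scale, normal tails gave back 100% of them within 0.001, and with a minimum of 0 they gave back 8.7%. They are therefore not comparable with the adjusted p of the report, which tests against 0. In the same table Nfkbia (log2 fold change 0.92, adjusted p = 0.0144) and Tnfaip3 (0.88, adjusted p = 0.0180) have an adjusted p under 0.05 in that test. The authors' deposited table labels 421 genes with an adjusted p under 0.05 as Non-significant, and the largest absolute log2 fold change among these is 1.00. Against the same minimum, Bcl3 in the authors' deposited table has -1.16 with an adjusted p of 0.0757, and Relb -0.77 with 0.217. Neither passed there, whereas both were the 2 members called lower in edgeR's test against a minimum of 0.5. The calls of Bcl3 and Relb at this minimum thus depended on the test, and the reason was not tested.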
